A study of Mus musculus with 32 samples.

Results

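Angptl4, Pdk4, Plin2, Cyp4a10, Cyp4a14, Vnn1 and Creb3l3 are lipid-responsive target genes of the nuclear receptor PPARA, and the HNF4A binding sites at these 7 genes were described in mouse jejunum. The genes were chosen by name, and their sites were taken from 8 HNF4A ChIP-seq peak lists, whose peaks merged into 45552 sites where they shared at least 1 bp. A merged site was kept when it lay over a gene body or within 20 kb of it in the GENCODE M1 annotation of mm9, which left 40 sites at the 7 genes. Angptl4 had 8 of them, Pdk4 3, Plin2 9, Cyp4a10 2, Cyp4a14 1, Vnn1 5 and Creb3l3 13, with 1 site shared between Cyp4a10 and Cyp4a14.

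The libraries came from jejunal intestinal epithelial cells (IECs) of male C57BL/6J mice, 10 to 12 weeks old, 1 mouse per library. In the GF+HFM group, 4 germ-free mice were gavaged with a single high-fat meal of egg yolk emulsion. In the CV+HFM group, 4 mice born germ-free were colonized with a conventional microbiota for 14 days and then given the same meal. IECs of both groups were collected 2 hours after the meal, so that all 8 mice had received it and the groups differed in colonization. The cells were not sorted, and the study describes them as mostly villus epithelium with some crypt and mesenchymal cells, so fewer epithelial cells and less HNF4A bound per cell cannot be told apart.

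PPARA is a receptor for fatty acids and their derivatives that pairs with RXR and binds direct repeats of a short half-site with 1 base between the copies. In the small intestine and liver it raises the expression of genes for fatty acid oxidation and ketone body production when lipid arrives or during fasting. HNF4A is a nuclear receptor of the gut, liver and pancreas that defines the enterocyte program and binds a closely related repeat, so that both receptors can share regulatory regions of lipid genes. Among the 7 genes, Angptl4 encodes a secreted inhibitor of lipoprotein lipase, Pdk4 a kinase that turns off pyruvate dehydrogenase, Plin2 a coat protein of lipid droplets, Cyp4a10 and Cyp4a14 fatty acid omega-hydroxylases, Vnn1 the pantetheinase vanin-1, and Creb3l3 a membrane-bound transcription factor of lipid metabolism also known as CREB-H.

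The lists hold positions only, with no read count, height or p-value per peak, so the depth of each library is unknown and width served as the graded value of a peak. A width percentile is the rank of a peak's width among all peaks of its own list, from 0 for the narrowest to 100 for the widest. The lists held 31061 to 36846 peaks in the GF+HFM libraries and 4533 to 29345 in the CV+HFM libraries. The CV+HFM lists of replicates 2 and 4 were the shortest, with 9206 and 4533 peaks. As a check of the cell label, 6 of 6 epithelial marker genes had HNF4A sites, 5 to 20 each, with 8 sites called in all 8 libraries. Among 6 markers of immune, stromal and endothelial cells, 5 had 1 or more sites, at most 3 each, none of them called in all 8 libraries, and Ptprc had none.

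Of the 40 sites, 4 lay over the start of a member gene, 9 elsewhere in a member gene, 19 upstream and 8 downstream. The map of sites by distance from the gene start shows where the most widely called ones fell. Sites called in all 8 libraries lay at Angptl4, Pdk4, Plin2 and Creb3l3, and no site at Cyp4a10, Cyp4a14 or Vnn1 was called in more than 7.

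**Figure D1:**
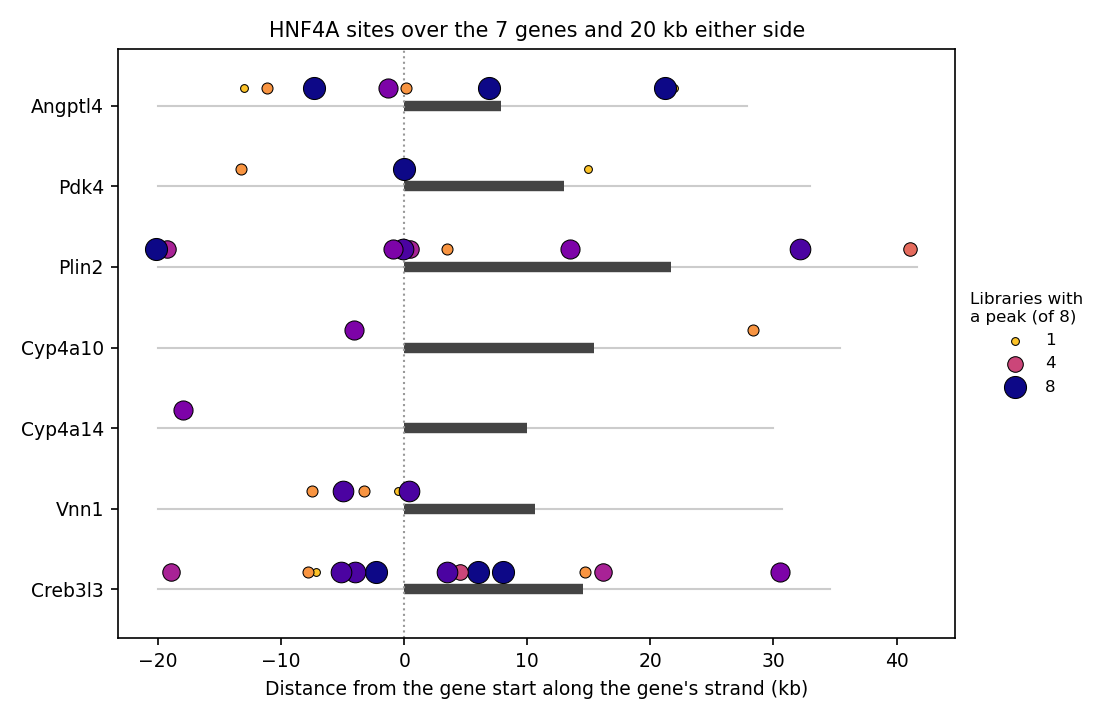
HNF4A sites over the 7 genes and 20 kb either side, by distance from the gene start along the gene's strand (kb), with the gene body as a dark bar. Each circle is a merged site at its centre, larger and darker where more of the 8 libraries had a peak, and Creb3l3 and Angptl4 each show 3 sites called in all 8 libraries.

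The sequences of 9 of these sites are shown as examples, with 1 or 2 for each gene. Each is read from the mm9 reference, 5′ to 3′ on the strand of the gene (Cyp4a10 for the shared site), over up to 200 bp around the centre of the stretch that the most libraries cover, without annotated UTR. Capitals mark matches to a PPAR-type direct repeat, AGGTCANAGGTCA, with at most 3 mismatches, or to the HNF4 motif CAAAGTCCA with at most 1, on either strand, and a window can hold both, overlapping or apart.
Angptl4 upstream, chr17:33925734-33925933: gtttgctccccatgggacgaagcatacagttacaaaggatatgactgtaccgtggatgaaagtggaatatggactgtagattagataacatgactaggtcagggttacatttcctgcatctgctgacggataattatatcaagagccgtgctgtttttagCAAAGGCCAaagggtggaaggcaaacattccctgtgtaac
Angptl4 intron 6, chr17:33912530-33912729: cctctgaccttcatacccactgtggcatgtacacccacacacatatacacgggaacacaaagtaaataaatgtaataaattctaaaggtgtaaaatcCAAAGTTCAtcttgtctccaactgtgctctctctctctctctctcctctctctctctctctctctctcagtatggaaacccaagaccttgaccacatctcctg
Pdk4 start, chr6:5446390-5446589: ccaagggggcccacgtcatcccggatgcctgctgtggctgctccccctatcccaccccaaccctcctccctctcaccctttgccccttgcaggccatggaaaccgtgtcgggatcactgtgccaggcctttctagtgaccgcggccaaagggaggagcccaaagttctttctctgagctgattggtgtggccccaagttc
Plin2 start, chr4:86315965-86316142: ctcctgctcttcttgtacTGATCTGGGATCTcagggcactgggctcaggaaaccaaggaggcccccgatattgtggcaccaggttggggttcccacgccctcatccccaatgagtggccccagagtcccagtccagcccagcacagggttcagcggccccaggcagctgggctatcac
Plin2 upstream, chr4:86336115-86336314: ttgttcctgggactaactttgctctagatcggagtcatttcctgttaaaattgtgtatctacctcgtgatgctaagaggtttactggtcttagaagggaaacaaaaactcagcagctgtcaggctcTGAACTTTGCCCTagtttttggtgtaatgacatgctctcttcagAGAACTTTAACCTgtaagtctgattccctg
Cyp4a10 and Cyp4a14, chr4:115186627-115186826: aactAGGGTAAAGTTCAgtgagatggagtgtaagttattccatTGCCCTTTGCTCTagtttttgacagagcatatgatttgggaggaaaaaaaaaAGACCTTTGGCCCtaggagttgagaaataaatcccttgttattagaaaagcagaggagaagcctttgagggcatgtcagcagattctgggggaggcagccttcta
Vnn1 start, chr10:23614682-23614783: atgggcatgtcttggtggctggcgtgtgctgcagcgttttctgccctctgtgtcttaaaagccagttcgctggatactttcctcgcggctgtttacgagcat
Creb3l3 upstream, nearer site, chr10:80563883-80564082: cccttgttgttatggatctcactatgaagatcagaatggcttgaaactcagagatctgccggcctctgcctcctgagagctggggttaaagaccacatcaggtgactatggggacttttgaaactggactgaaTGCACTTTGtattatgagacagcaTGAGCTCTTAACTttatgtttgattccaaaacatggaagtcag
Creb3l3 upstream, farther site, chr10:80565227-80565426: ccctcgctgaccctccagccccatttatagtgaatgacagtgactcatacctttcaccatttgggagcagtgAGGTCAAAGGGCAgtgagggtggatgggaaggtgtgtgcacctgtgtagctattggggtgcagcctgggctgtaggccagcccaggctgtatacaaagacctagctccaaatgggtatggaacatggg

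The closest direct repeat in any of these windows was at the farther upstream site of Creb3l3, with 1 mismatch. That site lay nearer to the neighbouring gene Map2k2 than to Creb3l3. The window shared by Cyp4a10 and Cyp4a14 held 3 separate repeats with 3 mismatches each, and the upstream Plin2 window held 1 with 2 mismatches and another with 3. Windows not shown held repeats too, such as those of the Creb3l3 sites from 80553032 and from 80555244, each with a closest match of 2 mismatches. Among all 40 member windows, 7 (17.5%) held a repeat with at most 2 mismatches, against 14.6% of the 45326 merged sites on sequences in the reference, and none held the exact HNF4 motif, against 5.98%. With 3 mismatches allowed to the repeat, a setting added after the letters were seen, the shares were 18 of 40 (45%) and 45.9%. With 1 mismatch allowed to the HNF4 motif, also added then, they were 12 of 40 (30%) and 33.6%. None of these shares was tested against the other. A match is a description of letters and not of a bound site.

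Angptl4 carried 3 sites that all 8 libraries called. The gene occupies 33910695 to 33918520 of chromosome 17 (minus strand). The widest by mean width percentile ran from 33925318 to 33926398, with its centre 7338 bp upstream of the gene start. Its width percentile was 92.2, 92.1, 94.9 and 94.7 in GF+HFM replicates 1 to 4 and 91.6, 89.6, 93.5 and 89 in CV+HFM replicates 1 to 4. The ranges of the groups overlapped, and the site was among the wider peaks even in the shortest lists. The means were 93.5 ± 1.51 and 90.9 ± 2.05 (SD, n = 4 each).

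The site at the 3′ end of Angptl4, from 33910310 to 33912938, covered exon 7, the end of intron 6 and sequence past the gene. It was 2629 bp long after merging, and the stretch shared by all 8 libraries was 113 bp of intron 6. Peak widths there were 634, 455, 1615 and 1911 bp in GF+HFM and 471, 231, 676 and 113 bp in CV+HFM, so GF+HFM replicates 3 and 4 reached far beyond the other libraries. The width percentiles averaged 92.8 ± 8.65 and 76 ± 17.7 (SD, n = 4 each) and overlapped between the groups.

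The third site in all 8 libraries, from 33896977 to 33897723, lay 21170 bp past the Angptl4 start and over Rab11b, the gene of a vesicle-trafficking GTPase, and over the long noncoding RNA Gm17251. Its width percentile was 78.6, 80.1, 84.6 and 81.9 in GF+HFM and 95.4, 97.4, 85.4 and 76.4 in CV+HFM. CV+HFM replicates 1 to 3 were above every GF+HFM library and replicate 4 was below them. A narrower site sat over the Angptl4 start itself, from 33918144 to 33918701, and was called in GF+HFM replicates 1 and 4 alone. The site 1323 bp upstream of the start had peaks in 4 GF+HFM libraries and 2 CV+HFM libraries. The remaining 3 sites were called in 1 or 2 GF+HFM libraries each and in no CV+HFM library.

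Pdk4 (chromosome 6, 5433351 to 5446309, minus strand) had its 1 widely called site over the gene start. This site ran from 5445908 to 5446777 and had a peak in all 8 libraries. Its width percentile was 96, 96.7, 91 and 86.3 in GF+HFM and 82.9, 83.7, 88.9 and 5.01 in CV+HFM, and the ranges overlapped through CV+HFM replicate 3. The peak of CV+HFM replicate 4 was 52 bp wide, against 275 to 496 bp in the other CV+HFM libraries and 729 to 821 bp in GF+HFM. The group means were 92.5 ± 4.84 and 65.1 ± 40.2 (SD, n = 4 each). The other 2 Pdk4 sites were narrow and called in 1 and 2 GF+HFM libraries.

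Plin2 occupies 86294290 to 86315964 of chromosome 4 (minus strand), and its 9 sites ran from 20137 bp upstream of the start to 41111 bp past it, 3 of them centred within 1 kb of it. The site over the start, from 86315767 to 86316332, had peaks in every GF+HFM mouse and in CV+HFM replicates 1 to 3. It was of middle width, at percentiles of 67.8, 82.5, 43.6 and 60 in GF+HFM and 70, 64 and 38.1 in the CV+HFM libraries that called it. On either side of it, sites centred 498 bp inside the gene and 940 bp upstream had peaks in every GF+HFM mouse and in 1 and 2 CV+HFM mice. The widest site by mean percentile ran from 86302097 to 86302958 over exon 8, and had peaks in every GF+HFM mouse plus CV+HFM replicates 1 and 3, at percentiles from 71.3 to 92.1.

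The Plin2 site called in all 8 libraries lay 20137 bp upstream of the start, from 86335824 to 86336379, close to the edge of the 20 kb limit. Its percentiles were 72.9, 51.1, 53.5 and 62.2 in GF+HFM and 60.7, 19.8, 75.4 and 23.9 in CV+HFM. At 19860 bp from the gene body it was the member site closest to the limit, and the next was a Plin2 site at 19191 bp that 3 GF+HFM libraries called. Just outside the limit, a site 21318 bp from Plin2 was called in all 8 libraries, and a site 21742 bp from Cyp4a10 had peaks in all 4 GF+HFM mice and 0 CV+HFM mice.

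Cyp4a10 and Cyp4a14, neighbouring cytochrome P450 genes on chromosome 4, had the fewest sites of the 7 genes. Cyp4a10 occupies 115190869 to 115206254 (plus strand) and Cyp4a14 115158805 to 115168747 (minus strand). The site they share, from 115186525 to 115187000, was centred 4107 bp upstream of the Cyp4a10 start and 18015 bp upstream of the Cyp4a14 start. Its width percentile was 61.4, 33.8, 29.5 and 51.4 in GF+HFM and 13.5 and 21.5 in CV+HFM replicates 1 and 3, the CV+HFM libraries that called it. Among the libraries with a peak there, every GF+HFM peak ranked above both CV+HFM peaks. How often this order occurs over all sites was not counted, and each rank is within a list of its own length. Calls in 4 against 2 libraries gave p = 0.429 by Fisher's exact test (two-sided). Only calls in all libraries of 1 group and none of the other can give p below 0.05. The test therefore cannot decide whether the calls differ. No site lay over either gene, and the other Cyp4a10 site was called in GF+HFM replicates 1 and 3.

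Vnn1 (chromosome 10, 23614494 to 23625149, plus strand) had a broad site over its start, from 23614168 to 23615618. Width percentiles were 91.2, 86.7, 83.1 and 98.5 in GF+HFM and 89.8, 25.2 and 52 in CV+HFM replicates 1 to 3, and CV+HFM replicate 4 had no peak there. The site centred 4997 bp upstream was called in the same 7 libraries. The other 3 Vnn1 sites were called in 1 or 2 libraries, and no site lay further inside the gene.

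Creb3l3 had the most sites, at 2.38 per 10 kb of its window, a density above 99.5% of the 22367 protein-coding genes. The count takes every site of the window, whichever gene is nearest, for Creb3l3 as for all genes. The gene occupies 80547069 to 80561619 of chromosome 10 (minus strand). The widest site, called in all 8 libraries, was centred 2312 bp upstream of the start, from 80563358 to 80564504, with percentiles of 95.5, 97.8, 92.7 and 94.6 in GF+HFM and 98.7, 67.4, 86.3 and 79.4 in CV+HFM. CV+HFM replicate 1 was the highest of the 8 and the other CV+HFM libraries were below every GF+HFM library. Sites centred 3983 and 5148 bp upstream were each called in 7 libraries, all but CV+HFM replicate 4. Their nearest gene was not Creb3l3 but its neighbour Map2k2, at 2418 and 1536 bp.

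Inside Creb3l3, a site over exon 5 and intron 5, from 80553032 to 80554166, stood at percentiles of 94, 95.6, 97.6 and 89.9 in GF+HFM and 95, 96.5, 96.8 and 41.5 in CV+HFM. A second one, from 80555244 to 80556049 across exons 2 and 3, stood at 93.7, 94.4, 88.5 and 83 in GF+HFM and 93.6, 61.1, 92.2 and 28.2 in CV+HFM. CV+HFM replicate 4 was the lowest library at both. Of the 13 sites of the window, 3 lay over Map2k2, a MAP kinase kinase gene upstream, and 1 over the peptidase gene Thop1 downstream, and these 4 were called in at most 5 libraries. A further site, centred 30566 bp past the start, had Thop1 as its nearest gene, at 1484 bp.

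**Figure D2:**
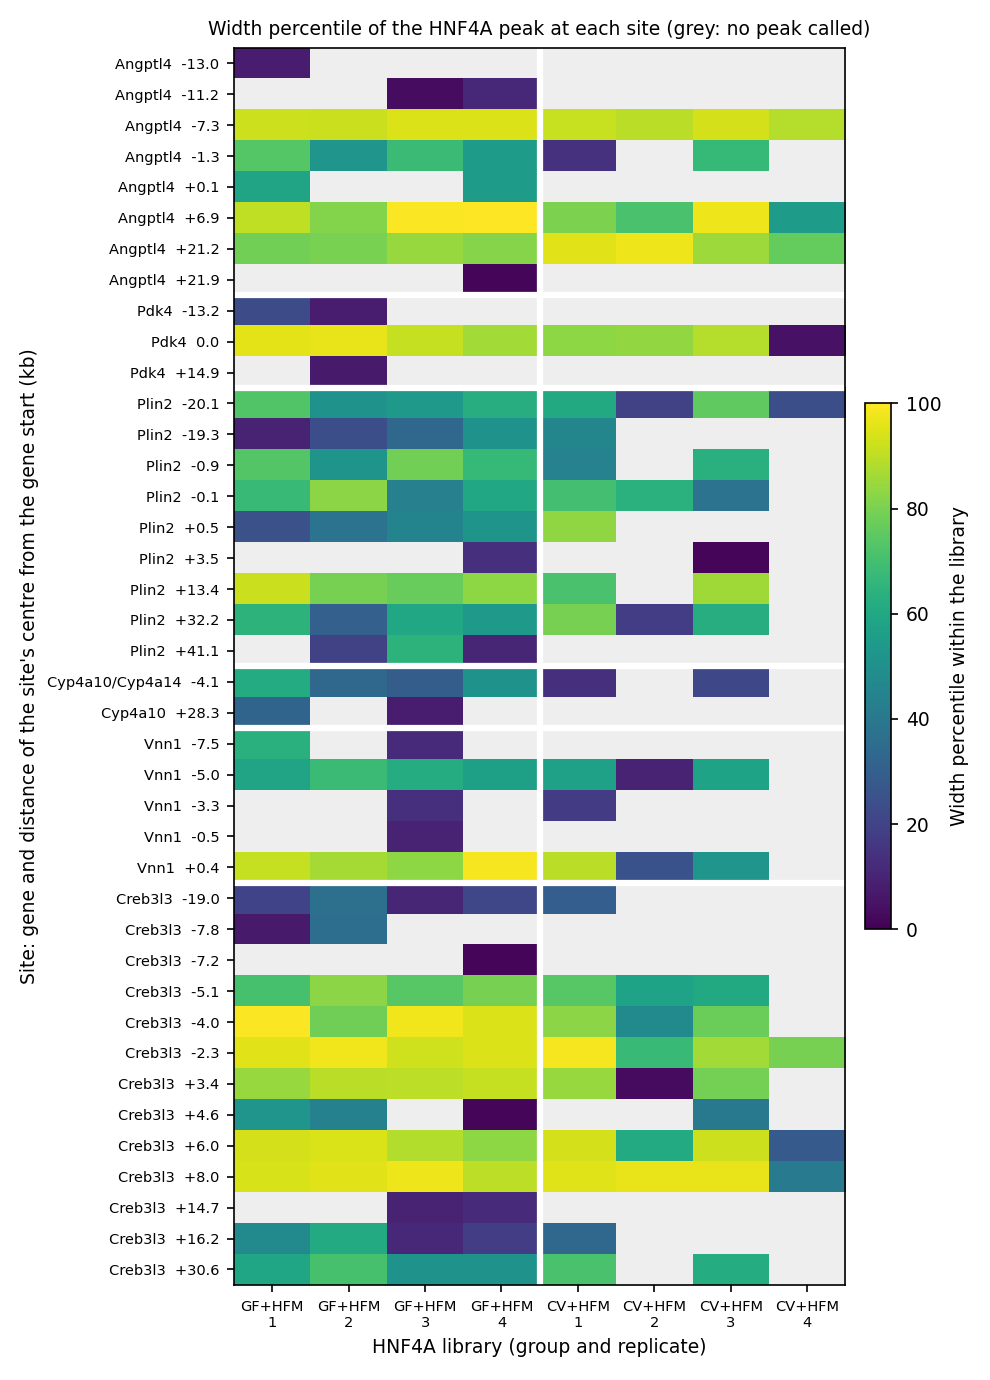
Width percentile of the HNF4A peak at each of the 40 sites (rows, labelled by gene and distance in kb of the site's centre from the gene start) in each of the 8 libraries (columns), with grey where no peak was called. Coloured cells fill most of the GF+HFM columns and thin out in CV+HFM replicates 2 and 4, which called 15 and 8 of the sites.

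The first question of the design at these sites was whether colonization changed which were called. The 40 sites had peaks in 31, 29, 31 and 32 cases in GF+HFM replicates 1 to 4 and in 25, 15, 22 and 8 cases in CV+HFM replicates 1 to 4. The groups did not overlap, with means of 30.8 ± 1.26 and 17.5 ± 7.59 (SD, n = 4 each), and the same order held over all merged sites, of which the libraries called 64% to 76.4% and 8.97% to 60.8%. Of the 40 sites, 30 (75%) had peaks in a larger number of GF+HFM mice, 10 in equal numbers and 0 in a larger number of CV+HFM mice. Over all sites, 86.5% favoured GF+HFM. Without CV+HFM replicate 4 the shares were 57.5% of the 40 (23 sites) and 75.7% of all sites, and without CV+HFM replicates 2 and 4 they were 45% (18 sites) and 51.1%. Which share was the higher turned with the rule for a call. Where a peak had to cover 50% of the site, 97.5% of the 40 and 93.8% of all sites favoured GF+HFM, and with peaks of at least 300 bp alone it was 28 of 28 (100%) and 96.6%. The difference in sites called per library, -13.25, was -10.1 without CV+HFM replicate 4 and -7.25 without replicates 2 and 4.

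The strict pattern, all 4 GF+HFM libraries and no CV+HFM library, occurred at 0 of the 40 sites, against 2.79% of all sites. Without CV+HFM replicate 1 it occurred at 4 (10%), against 10.7% of all sites, and without GF+HFM replicate 1 at 1 (2.5%), against 3.32%. Sites with no CV+HFM call numbered 13 (32.5%), against 35.6% of all sites. At the other end, 8 of the 40 sites (20%) were called in all 8 libraries, against 7.56% of all sites, and the median member site was called in 5.5 libraries against 4 over all sites. By Fisher's exact test on calls in 4 against 4 libraries, two-sided, 0 member sites had an adjusted p below 0.05 and 0 an unadjusted one, and the smallest p was 0.143, at 5 sites. Over all sites the same test gave 1269 unadjusted calls, all with more GF+HFM libraries, and 0 adjusted ones (0%), with a smallest adjusted p of 0.824. As 0.0286 is the smallest p that 4 against 4 libraries allow, an adjusted p below 0.05 would need most sites at it.

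All 24 sites called in the 4 GF+HFM libraries were also called in 1 or more CV+HFM libraries. This was also the case for most such sites in the genome, where 1269 of 23049 had no CV+HFM call. Of the 24 member sites, CV+HFM replicates 1 to 4 called 24 (100%), 15 (62.5%), 20 (83.3%) and 8 (33.3%). The same libraries called 91.6%, 37.1%, 78% and 17% of the 23049 such sites in the genome. Each CV+HFM library thus held a larger share of the member sites than of all sites, which is a description and was not tested. The 40 member sites were also longer after merging, with a median of 499.5 bp against 437 bp over all sites. The part of site length in these shares was not tested. Of the 8 sites held by CV+HFM replicate 4, Angptl4 and Creb3l3 had 3 each. The plot of shares called gives the same libraries over all 40 sites.

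**Figure D3:**
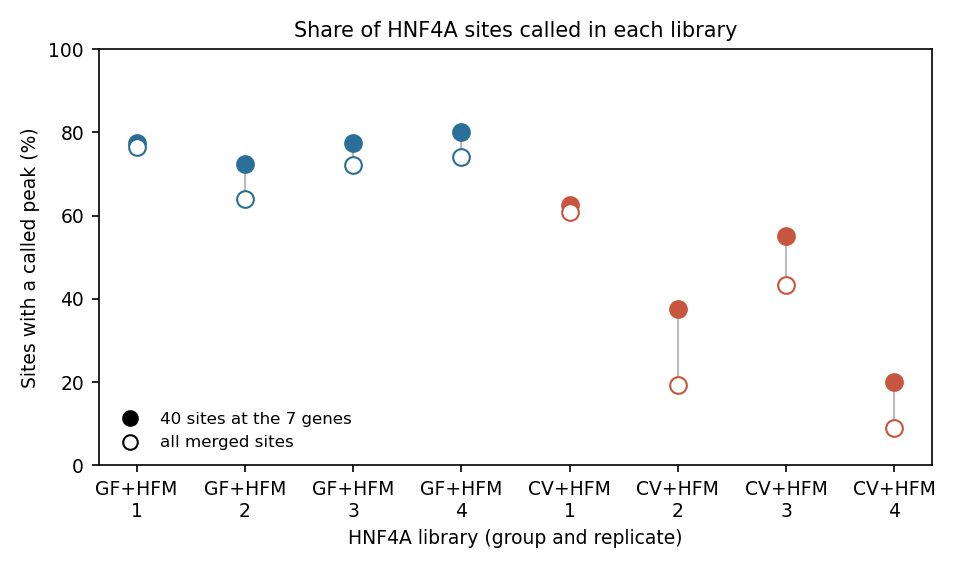
Share of sites with a called peak (%, vertical axis) in each HNF4A library (horizontal axis), filled circles for the 40 sites at the 7 genes and open circles for all 45552 merged sites. The gap is smallest in GF+HFM replicate 1 (77.5% and 76.4%) and widest in CV+HFM replicate 2 (37.5% and 19.2%).

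The width of a site in the GF+HFM lists moved with the number of CV+HFM lists that held it. The median GF+HFM width percentile of member sites was 10.8 at the 13 sites with no CV+HFM call, 29.7 at 7 sites with 1, 62.2 at 5 sites with 2, 76.7 at 7 sites with 3 and 92.6 at 8 sites with all 4. The same medians over all sites were 18.2, 32.6, 56.2, 73.7 and 86.7. The order of the medians was the same at the 7 genes and in the genome. Single sites overlapped between these classes. Member sites with no CV+HFM call ran from 1.22 to 56.9, and those with 1 from 13.7 to 39.9. The part of list length in these counts was not tested.

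Relative width was then compared at the sites called in all 8 libraries, with limma, after width ranks in each list had been turned into normal scores, over all 3445 such sites. None of the 8 member sites passed an adjusted p of 0.05, against 4 of all sites tested (0.116%). The unadjusted p was below 0.05 at 1 of the 8, against 11.6% of all. That site was the one over Rab11b in the Angptl4 window, where the mean score stood at -0.41 for GF+HFM and 0.74 for CV+HFM, a difference of 1.15 ± 0.39 (SE, limma, unadjusted p = 0.0087, adjusted p = 0.322). At the Pdk4 start the difference was -0.81 ± 0.48 (SE, adjusted p = 0.503), and at the 3′ end of Angptl4 it was -0.76 ± 0.54 (SE, adjusted p = 0.582). The score was lower in CV+HFM at 4 of the 8 sites and higher at 4, with a median difference of -0.10 against 0.04 over all sites tested.

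Counted per gene, all 7 genes had fewer called sites in CV+HFM, as did 96.1% of the 14640 protein-coding genes with a site. Creb3l3 had 11, 11, 10 and 12 called sites in GF+HFM and 9, 6, 8 and 3 in CV+HFM, groups that did not overlap. The means were 11 ± 0.816 and 6.5 ± 2.65 (SD, n = 4 each; exact permutation test, two-sided, p = 0.0286, adjusted p = 0.234), and the difference, -4.50 sites, was -3.33 without CV+HFM replicate 4. It was the 1 gene of the 7 with an unadjusted p below 0.05, against 12.2% of genes with a site, and no gene in the genome passed after adjustment. With 70 relabellings, 0.0286 is the smallest p this test can give, and an adjusted p below 0.05 would need most genes at it.

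Plin2 had 7, 8, 8 and 9 called sites in GF+HFM and 7, 3, 6 and 1 in CV+HFM (means 8 ± 0.816 and 4.25 ± 2.75, SD, n = 4 each; exact permutation p = 0.0571, adjusted p = 0.286). The groups met at 7 sites, and the difference, -3.75 sites, was -2.67 without CV+HFM replicate 4. Angptl4 had 6, 4, 5 and 7 against 4, 3, 4 and 3 (exact permutation p = 0.0857, adjusted p = 0.286). Pdk4 had 2, 3, 1 and 1 called sites in GF+HFM and 1 in each CV+HFM library, which was the site over its start. For Pdk4, Cyp4a10, Cyp4a14 and Vnn1 the exact permutation p ran from 0.171 to 0.457. The median difference of the 7 genes, -1.25 sites, equalled that of all genes with a site. It is not scaled to the number of sites, whose median was 5 at the 7 genes and 3 at genes with a site.

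Because the lists differ in length, the bases covered by peaks in a gene's window were also expressed per Mb of peak bases in the library. On this scale 3 of the 7 genes were higher in CV+HFM (Angptl4, Pdk4 and Creb3l3) and 4 lower (Plin2, Cyp4a10, Cyp4a14 and Vnn1). None had an exact permutation p below 0.05 before or after adjustment, against 9.67% of genes with a site before adjustment and 0 after it. Creb3l3 stood at 438, 511, 398 and 395 bp per Mb in GF+HFM and 472, 697, 543 and 576 in CV+HFM. The groups overlapped through GF+HFM replicate 2, with means of 436 ± 54.3 and 572 ± 94 (SD, n = 4 each; exact permutation p = 0.0571, adjusted p = 0.365).

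Angptl4 stood at 281, 252, 293 and 314 bp per Mb in GF+HFM and 243, 506, 388 and 911 in CV+HFM (exact permutation p = 0.143, adjusted p = 0.435). CV+HFM replicate 1 was the lowest of the 8 libraries and the shortest list, replicate 4, the highest. Without CV+HFM replicate 4 the difference between the means fell from 227 to 93.6 bp per Mb. Plin2 and Vnn1 had no peak base in CV+HFM replicate 4, whose 1 call at Plin2 fell on the part of the upstream site past 20 kb. Without that library both were higher in CV+HFM, by 12.5 and 3.66 bp per Mb. Pdk4 was higher in CV+HFM by 19.1 bp per Mb, and without CV+HFM replicate 2 the difference was -0.54.

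The shared Cyp4a site gave Cyp4a14 26.8, 23.5, 19.4 and 25.7 bp per Mb in GF+HFM and 19, 0, 30.8 and 0 in CV+HFM. CV+HFM replicate 4 had no peak base at 4 of the 7 genes, Plin2, Cyp4a10, Cyp4a14 and Vnn1, and at 71.7% of all genes with a site. The windows of the 7 genes together held 1133, 1194, 1120 and 1103 bp per Mb in GF+HFM and 1141, 1672, 1350 and 1571 in CV+HFM. The groups overlapped at CV+HFM replicate 1. The difference between their means, 296 bp per Mb, was 216 without CV+HFM replicate 2, 250 without replicate 4 and 108 without both. The highest sums were those of replicates 2 and 4, whose lists covered 1.88 and 0.623 Mb against 6.52 to 18.4 Mb in the other libraries.

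**Figure D4:**
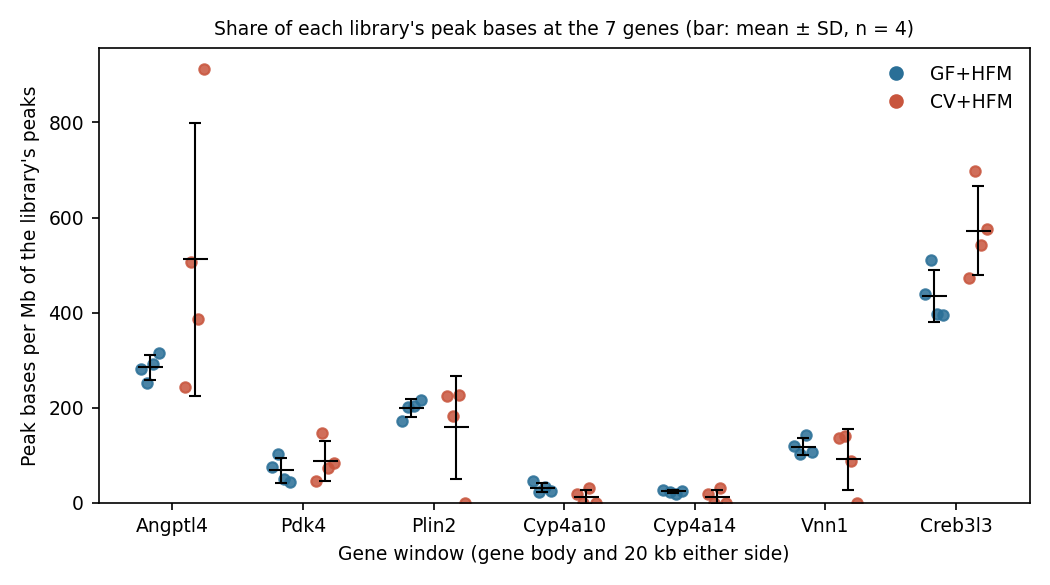
Peak bases in each gene's window per Mb of peak bases in the library (vertical axis) for the 7 genes (horizontal axis), with 1 point per library and bars for the mean ± SD (n = 4). CV+HFM points spread from 0 to 227 bp per Mb at Plin2 and from 243 to 911 at Angptl4.

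A list of 25 other PPARA target and ketogenesis genes was read in the same way. All 25 had HNF4A sites, with a median of 6 against 5 at the 7 genes and 3 over genes with a site. Cpt1a, the gate of mitochondrial fatty acid import, had 10. Its called sites numbered 7, 5, 8 and 6 in GF+HFM and 7, 2, 2 and 0 in CV+HFM, groups that overlapped at CV+HFM replicate 1. All 25 had fewer called sites in CV+HFM, 9 of them with an unadjusted exact permutation p below 0.05 and 0 with an adjusted one, against 12.2% of genes with a site. Their median difference was -2.5 sites, against -1.25 for the 7 genes. These differences are not scaled to the number of sites at each gene, which was higher for the 25.

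In bp per Mb, 2 of the 25 had an unadjusted exact permutation p below 0.05 and 0 an adjusted one, against 9.67%. These 2, named after their values were seen, moved in opposite directions. Cd36, a fatty acid transporter gene, went from 102 ± 23.3 in GF+HFM to 13.1 ± 26.2 in CV+HFM (SD, n = 4 each; exact permutation p = 0.0286, adjusted p = 0.295). Ehhadh, a peroxisomal bifunctional enzyme gene, went from 176 ± 14.6 to 347 ± 125 (SD, n = 4 each; exact permutation p = 0.0286, adjusted p = 0.295).

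Among 3901 genes with a peak in every library and outside these windows, the summed bp per Mb of the 7 genes was followed most closely by Hspa12a, Gadd45a and Mkln1, with Pearson r of 0.994, 0.993 and 0.992 over the 8 libraries. The points share the length of their lists, and the values are a description.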

How the data were processed

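HNF4A ChIP-seq of 4 GF+HFM and 4 CV+HFM mice was used, and 24 of the 32 samples were not used here. Per the labels and the study's methods, alignment to mm9 by the authors used Bowtie2 2.3.2, and MACS2 2.1.1.20160309 (bandwidth 300 bp) called each mouse separately against input, giving 1 deposited list for each. The series holds 1 input sample for each group. Where each group was called against its own, an effect of the input cannot be told apart from one of colonization. The deposited values are positions in bp, and no other column was used. Depth per library is not given in the lists, and the number of peaks past a threshold moves with it.

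Groups came from sample titles. The replicate numbers name different mice. The 7 genes and all lists were chosen with earlier results of these data known. Detail was given for sites over a gene start, called in all 8 libraries or in 4 GF+HFM and 0 CV+HFM, and the widest per gene. The sequence of the farther upstream Creb3l3 site is shown outside this rule. It holds the closest direct repeat of all member windows, and the other Creb3l3 sites called in 7 libraries are not shown. Tests used Python 3.11.15, scipy 1.17.1 and limma 3.58.1 in R 4.3.3, with Benjamini-Hochberg adjustment over all sites or genes, and were checked on simulated data. The exact permutation test used 70 relabellings, two-sided. Alternatives were 10 or 50 kb limits, gaps of 200 bp, peaks of at least 300 bp, 50% coverage, log2 width, the replicate number as a block, chromosomes 1 to 19, X and Y, each library left out, and CV+HFM replicates 2 and 4 left out together. Some genes of the pathway list are not reported here by name.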

Additional observations from a re-analysis of the deposited data

Results flagged for a closer look

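Among 50 groups of 4 libraries that were examined, 2 held a library far from the other 3, and chance would mark about 1 in 20. Both are width percentiles in CV+HFM, and in both the lowest was replicate 4, the library with the shortest list. At the Pdk4 start, replicate 4 stood at 5.01 and the others at up to 88.9, a gap of 0.929 of the whole range. At the Creb3l3 site over exon 5, replicate 4 stood at 41.5 and the others at up to 96.8, a gap of 0.967 of the range. The part of list length in these values was not tested.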

How the results depend on the processing

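Of 357 recomputed values, 339 were labelled as unchanged. A tested difference had to keep its direction and side of the threshold, and a count to stay within 1.5 times. The differences in sites called per library and in summed bp per Mb had to move by less than the larger group SD (7.59 and 237). By this wide rule, -7.25 sites against -13.25 and 108 bp per Mb against 296 are among the 339. Calls for the 7 genes numbered 0 by Fisher's test, limma and both permutation tests under every alternative run. For Fisher's test and both permutation tests, these 0 calls say nothing of stability, and they are among the 339. The smallest p of these tests with 4 against 4 libraries is 0.0286, so an adjusted p below 0.05 needs most sites or genes at it. For the same reason, the permutation values of single genes could change direction but hardly their side of the threshold. With the replicate block, limma also gave 0, and the 16 relabellings of the permutation tests allow no exact p below 0.125. Differences under this block equal the main ones by construction and are also among the 339. The labels do not say whether equal numbers share a batch. Deviations of same-numbered libraries correlated at -0.08 to 0.14, and 4 of 8 libraries correlated best with their own number. These values cannot decide it. With 50 kb either side there were 64 sites, 50 of them called in more GF+HFM libraries and 2 in 4 GF+HFM and 0 CV+HFM. The last count was also 2 with 50% of a site covered, and 0 to 4 with a library left out, while the count called in more GF+HFM libraries was 23 to 31, and 18 without CV+HFM replicates 2 and 4 (chosen after seeing the data). Bp per Mb in CV+HFM minus GF+HFM turned at Pdk4 with peaks of at least 300 bp (-26.1) and at Plin2 with 50 kb (46.5). With a library left out it ran from -0.54 to 32.6 at Pdk4, -63 to 12.5 at Plin2 and -42.9 to 3.66 at Vnn1. The width score at the Creb3l3 site from 80553032 was -0.047 with log2 width and -0.20 to 0.44 with a library left out, and at that from 80555244 it was -0.45 to 0.033. Counts fell by construction with fewer peaks or a narrower limit, and other causes were not tested. Unknown depth limits every count: a missing call is not absence of HNF4A.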

Other observations

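The 4 GF+HFM and 0 CV+HFM pattern, absent from the 40 sites, was present just past the 20 kb limit at Cyp4a10, where a site from 115227996 to 115228556 on chromosome 4 (mm9) had a mean width percentile of 21.7 over the 8 libraries, with no peak counted as 0. The neighbouring all-library site outside the Plin2 limit, from 86272086 to 86272972, stood at 78 on the same scale. Both were noticed after the limits had been set and are in no count made at 20 kb, while the counts made at 50 kb include them.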
